A study of Mus musculus with 8 samples.

Results

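MAP kinases pass signals from growth factors, cytokines and stress to the nucleus while they carry phosphate on a threonine and a tyrosine of their activation loop. Dual-specificity MAP kinase phosphatases remove both phosphates and so switch the kinases off. Several of their genes are themselves induced by MAP kinase signaling, which closes a feedback loop, and the family differs in place and in substrate: some members are nuclear, some are cytoplasmic and selective for ERK, and some act mainly on JNK and p38.

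The transcripts of 10 such phosphatases, Dusp1, Dusp2, Dusp4, Dusp5, Dusp6, Dusp7, Dusp8, Dusp10, Dusp14 and Dusp16, were followed in muscle stem cells (MuSCs), the cells that rebuild skeletal muscle after injury. The genes were chosen by name from the 55487 genes of the count table, and all 10 were among the 17454 genes with enough reads to be tested. MuSCs came from the hind limb muscles of young male C57BL/6 J mice 21 days after unilateral surgery. In denervated mice (DEN) a piece of the sciatic nerve was cut out, and in control mice (Sham) the nerve was located but left whole. Muscles of both groups were digested with enzymes, and living cells carrying α7-integrin and lacking Sca-1, CD11b, CD31 and CD45 were sorted. Other cells with α7-integrin, such as some glia, are not removed by this gate. RNA from 8 mice was sequenced, 4 DEN and 4 Sham, with 1 library per mouse. DEN replicate 1 was set aside in the study as an outlier, so 3 DEN libraries (replicates 2 to 4) were compared with 4 Sham libraries, and DEN replicate 1 is shown apart. The question was whether the genes that restrain MAP kinases differ in MuSCs of muscle without its nerve.

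The libraries held 26627173 to 34145854 counts. Levels are given in CPM, counts scaled to a fixed library total with normalized library sizes, and genes are compared with each other only in RPKM, which also divides by gene length. Of 10 MuSC markers, 2 were higher and 1 was lower, and their summed level was 7631 to 8558 CPM in DEN and 6948 to 8125 CPM in Sham. Myofiber markers were higher for 8 of 9 genes, with sums of 781 to 840 CPM in DEN and 232 to 382 CPM in Sham, and erythroid markers were lower for 5 of 7, with sums of 1956 to 2944 CPM in DEN and 5060 to 10183 CPM in Sham. No gene of these marker lists was at 0 in all libraries. The part of other cells in the results on the phosphatases was not tested, and fewer cells of a type and less RNA per cell cannot be told apart in bulk RNA.

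After denervation 2 of the 10 phosphatase genes rose and none fell. Dusp5 rose 4.45-fold and Dusp1 2.27-fold, both genes of the nuclear, inducible kind. The other 8 did not pass an adjusted p of 0.05 in edgeR's quasi-likelihood test with Benjamini-Hochberg adjustment over all genes. Across all genes tested, 5.29% were higher after DEN and 5.32% were lower (924 and 929 genes, or 575 and 523 without DEN replicate 2). At an unadjusted p under 0.05, 5 of the phosphatases were higher and 1 was lower, where 12.5% of all genes were higher and 12.9% lower. DESeq2 called 3 of them higher and 0 lower, where it called 6.6% of its genes higher and 6.65% lower. Of the 10 log2 fold changes, 8 were above 0, with a median of 0.28 against a median of -0.00 over all genes. Every DEN library lay above every Sham library for 4 of the phosphatases (Dusp1, Dusp4, Dusp5 and Dusp7), an arrangement found for 12% of all genes tested.

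**Figure D1:**
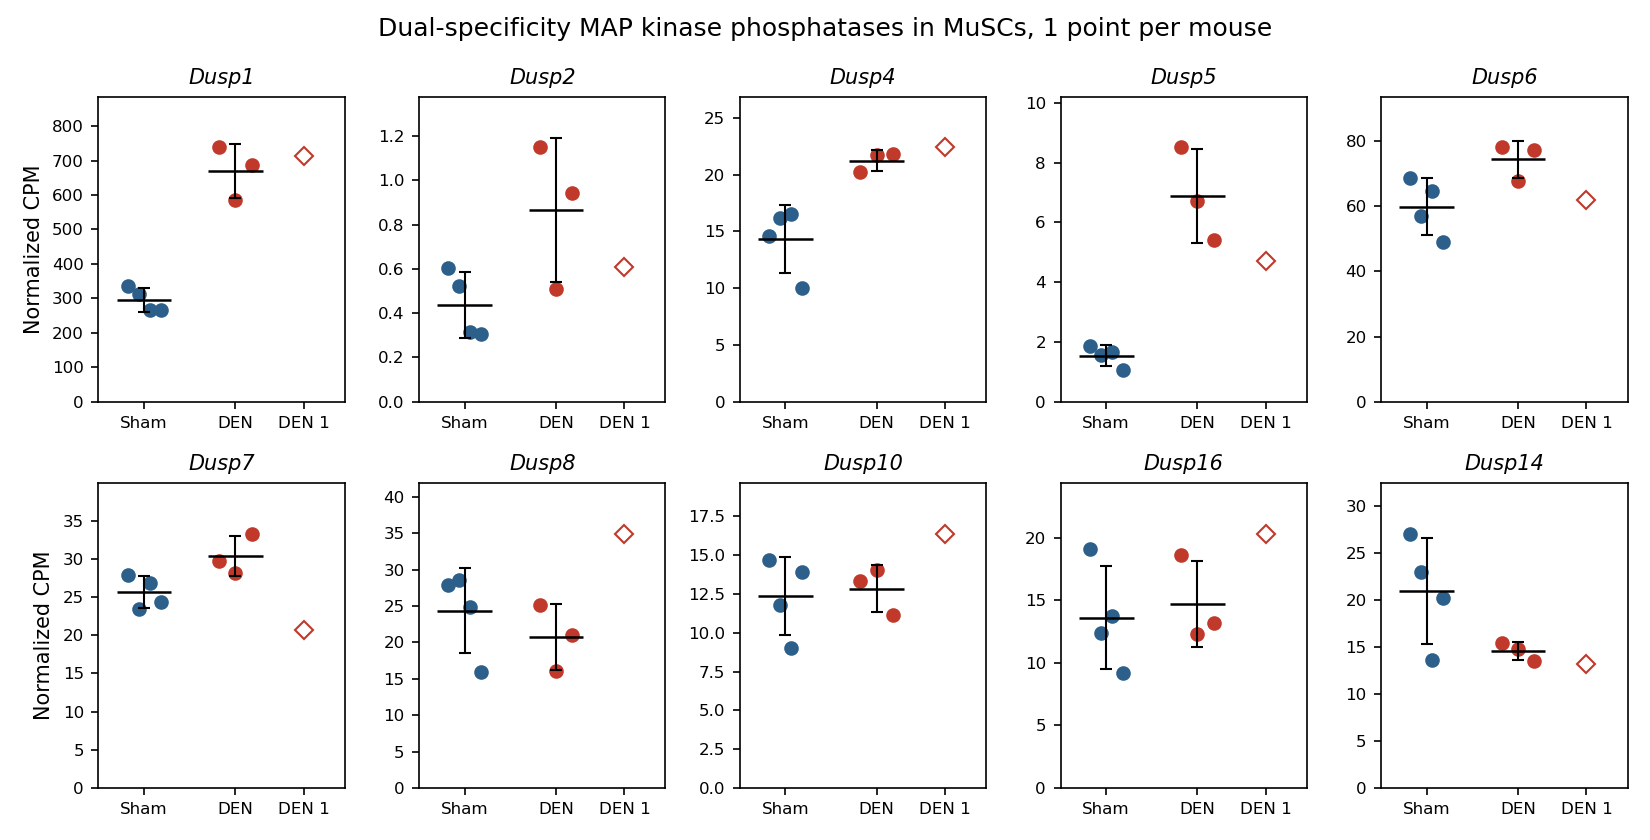
Normalized CPM of each phosphatase gene in each mouse, on linear axes that start at 0 and differ between genes. Filled points are the 4 Sham and 3 DEN libraries, with the mean as a line and the SD as a bar, and the open diamond is DEN replicate 1. Dusp1 and Dusp5 are separated widely, with 266 to 337 CPM in Sham against 585 to 738 CPM in DEN for Dusp1, while Dusp8, Dusp10 and Dusp16 overlap.

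Dusp1 (ENSMUSG00000024190, chr17:26505590-26562128, minus strand, GRCm38) encodes a nuclear phosphatase of p38, JNK and ERK and is a classical immediate early gene. Its level was 738, 585 and 686 CPM in DEN replicates 2 to 4 and 337, 313, 266 and 266 CPM in Sham replicates 1 to 4. The groups did not overlap, and DEN replicate 1, at 714 CPM, fell among the other DEN libraries. The mean was 670 ± 78.1 CPM in DEN (SD, n = 3) and 295 ± 35.3 CPM in Sham (SD, n = 4). The log2 fold change was 1.18 with an SE of 0.11 (95% interval 0.94 to 1.42, edgeR adjusted p = 0.000162). With 7660 to 21848 reads per library, counting error is small beside the differences between mice: the exact 95% interval, which covers counting error only, was 728 to 748 CPM for DEN replicate 2. Exons of Ergic1, on the other strand, share 11 of the 3311 exon bases of Dusp1, which the counting without strand cannot divide.

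Dusp5 (ENSMUSG00000034765, chr19:53529109-53542431, plus strand) encodes a nuclear phosphatase selective for ERK. Its level was 8.51, 6.73 and 5.40 CPM in DEN replicates 2 to 4 and 1.87, 1.57, 1.67 and 1.05 CPM in Sham replicates 1 to 4. The lowest DEN library was well above the highest Sham library, and DEN replicate 1, at 4.73 CPM, was below the other DEN libraries and above all Sham libraries. The means were 6.88 ± 1.56 CPM (SD, n = 3) and 1.54 ± 0.35 CPM (SD, n = 4), and the log2 fold change was 2.16 with an SE of 0.24 (95% interval 1.62 to 2.69, edgeR adjusted p = 0.000442). These levels rest on 31 to 252 reads per library. Exons of the antisense gene AC137853.2 cover 22.1% of the exon bases of Dusp5, and the counting did not use strand. That gene had 55 counts in all 8 libraries together, at 0.338 to 0.418 CPM in the 3 DEN libraries and 0 to 0.0906 CPM in Sham, so its listed level was far below that of Dusp5. How many Dusp5 counts came from the other strand was not tested.

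The upstream sequences of Dusp1 and Dusp5 are shown because these genes rose, and that of Dusp8 because it shares an element with Dusp1 and did not pass the test. RefSeq (GRCm38.p6) gave a start for 9 of the 10 genes, all but Dusp4, and the 250 bases before it were searched on both strands for the full cAMP response element (CRE, TGACGTCA), the AP-1 site (TGANTCA), the CArG box bound by serum response factor and the NF-kB site. Each line gives the bases from 250 to 51 before the start, 5′ to 3′ on the gene's strand, with matches in capitals. They lie at chr17:26508523-26508722 (minus strand, Dusp1), chr19:53528895-53529094 (plus strand, Dusp5) and chr7:142095335-142095534 (minus strand, Dusp8).
Dusp1: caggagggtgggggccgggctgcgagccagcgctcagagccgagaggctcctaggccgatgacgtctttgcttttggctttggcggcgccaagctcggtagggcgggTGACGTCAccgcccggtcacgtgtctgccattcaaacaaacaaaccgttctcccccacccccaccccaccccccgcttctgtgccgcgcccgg
Dusp5: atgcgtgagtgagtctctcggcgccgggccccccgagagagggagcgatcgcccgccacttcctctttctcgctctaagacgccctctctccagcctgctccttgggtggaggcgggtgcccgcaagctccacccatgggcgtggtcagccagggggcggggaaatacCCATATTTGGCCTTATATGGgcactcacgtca
Dusp8: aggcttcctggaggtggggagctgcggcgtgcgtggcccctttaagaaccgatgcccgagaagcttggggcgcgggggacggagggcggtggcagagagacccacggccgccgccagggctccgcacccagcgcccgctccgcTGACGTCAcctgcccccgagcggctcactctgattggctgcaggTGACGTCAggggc

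Dusp1 held 1 CRE, from 143 to 136 bases before its start. Dusp8 held 2, from 107 to 100 and from 63 to 56 bases before its start. Among all 32851 promoters of that source, 1.55% held a CRE and 0.0304% held 2 or more. Dusp5 held 2 CArG boxes side by side, from 82 to 73 and from 72 to 63 bases before its start, where 1.47% of promoters held a CArG box and 0.0183% held 2 or more. The printed bases of Dusp5 also lie inside annotated exons of AC137853.2. No match to the AP-1 site, held by 6.75% of promoters, or to the NF-kB site, held by 3.9%, was found in these windows of the 9 genes. The remaining 6 genes held none of the 4 motifs. Starts differ between annotations. GENCODE M21 also lists transcripts that begin up to 53656 bases upstream of the RefSeq start of Dusp1 and 559 bases upstream of that of Dusp8, so these windows lie inside the gene spans given here, and it starts Dusp5 36 bases upstream of RefSeq. A match describes the letters and does not show that a factor binds there. Whether these elements bear on the changes of the genes was not tested.

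Dusp4 (chr8:34807297-34819894, plus strand) encodes a nuclear phosphatase of ERK and JNK. Its level was 20.2, 21.7 and 21.8 CPM in DEN replicates 2 to 4 and 14.6, 16.1, 16.5 and 9.99 CPM in Sham replicates 1 to 4. No Sham library reached the lowest DEN library, and DEN replicate 1, at 22.4 CPM, was the highest of all libraries. The log2 fold change of 0.57 with an SE of 0.16 (95% interval 0.21 to 0.93) missed the threshold, with an edgeR adjusted p of 0.0525. With all 8 libraries the adjusted p was 0.0299, so that 3 phosphatases were then called higher, where 5.73% of all genes were. On the 7 libraries without DEN replicate 1, the adjusted p was 0.0123 with DESeq2, 0.0425 without the count filter and 0.0431 with limma, so the call also depended on the method.

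Dusp2 (chr2:127336159-127338376, plus strand), best known as an induced nuclear phosphatase of immune cells, was the rarest member, with 9 to 34 reads per library. It measured 1.15, 0.508 and 0.941 CPM in DEN replicates 2 to 4 and 0.604, 0.524, 0.313 and 0.305 CPM in Sham replicates 1 to 4. The groups overlapped, and the log2 fold change of 0.97 had a 95% interval of -0.0014 to 1.95 (edgeR adjusted p = 0.198). At this depth the interval ran from no change to a rise larger than that of Dusp1. Of the 4 nuclear inducible genes Dusp1, Dusp2, Dusp4 and Dusp5, 2 were called higher, where 5.29% of all genes were. Their median log2 fold change of 1.08 lies between the values of Dusp1 and of Dusp2, which was not called. No test of the group was made.

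Dusp6 and Dusp7 encode cytoplasmic phosphatases selective for ERK, and neither passed the test. Dusp6 (chr10:99263231-99267489, plus strand), a textbook readout of ERK activity, measured 78.1, 67.8 and 77.4 CPM in DEN replicates 2 to 4. In Sham replicates 1 to 4 it measured 68.8, 57.0, 64.8 and 48.9 CPM. The lowest DEN library was below the highest Sham library, and the log2 fold change was 0.32 (95% interval 0.057 to 0.57, edgeR adjusted p = 0.118). The interval leaves out a rise of the size seen for Dusp1 or Dusp5. Dusp7 (chr9:106368632-106375724, plus strand) measured 29.8, 28.1 and 33.3 CPM in DEN replicates 2 to 4 and 27.9, 23.4, 26.9 and 24.4 CPM in Sham replicates 1 to 4. Its groups were separated by a narrow gap, but DEN replicate 1, at 20.6 CPM, was below every Sham library. The log2 fold change was 0.25 (95% interval 0.012 to 0.48, edgeR adjusted p = 0.176) and 0.12 with all 8 libraries.

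The phosphatases that act mainly on JNK and p38, Dusp8, Dusp10 and Dusp16, had no member that passed the test and a median log2 fold change of 0.055. Dusp8 (chr7:142079490-142095843, minus strand) ranged from 16.1 to 25.1 CPM in DEN and from 15.95 to 28.6 CPM in Sham, with a log2 fold change of -0.23 (95% interval -0.70 to 0.23). It was -0.39 without DEN replicate 2 or Sham replicate 4, -0.077 without DEN replicate 3, -0.16 without Sham replicate 1, -0.15 without Sham replicate 2 and -0.0062 with all 8 libraries. Exons of Gm32786, on the other strand, cover 1.36% of its exon bases, and that gene had 6 counts in all 8 libraries together. Dusp10 (chr1:184013302-184075636, plus strand) ranged from 11.1 to 14.0 CPM in DEN and from 9.04 to 14.7 CPM in Sham, with a log2 fold change of 0.055 (95% interval -0.33 to 0.44). Dusp16 (chr6:134715468-134792625, minus strand) ranged from 12.3 to 18.6 CPM in DEN and from 9.18 to 19.1 CPM in Sham, with a log2 fold change of 0.11 (95% interval -0.41 to 0.63). The groups overlapped for all of these genes, and their edgeR adjusted p-values ran from 0.556 to 0.893. DEN replicate 1 was above all other libraries for each, at 35.0 CPM for Dusp8, 16.4 CPM for Dusp10 and 20.3 CPM for Dusp16.

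Dusp14 (chr11:84048041-84069261, minus strand) encodes an atypical member, a small phosphatase without the MAP kinase binding domain of the others. It measured 15.4, 14.8 and 13.5 CPM in DEN replicates 2 to 4 and 27.1, 22.9, 13.7 and 20.2 CPM in Sham replicates 1 to 4. Sham replicate 3 lay among the DEN libraries and the other Sham libraries lay above them, as they did above DEN replicate 1 at 13.2 CPM. The log2 fold change was -0.53 with an SE of 0.20 (95% interval -0.97 to -0.088, edgeR adjusted p = 0.124). Without Sham replicate 3 it was -0.69 with an adjusted p of 0.0172, so 1 library decided this call.

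**Figure D2:**
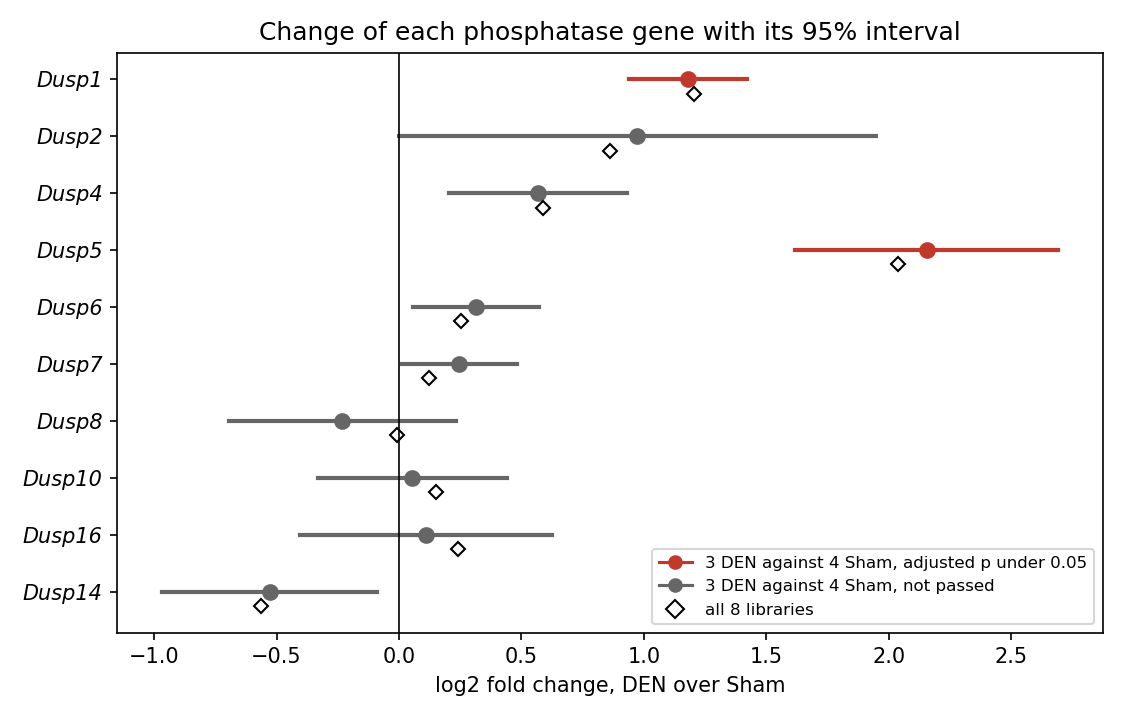
Log2 fold change of each phosphatase gene, DEN over Sham, with its 95% interval as a line (3 DEN against 4 Sham libraries). Red marks an adjusted p under 0.05 and diamonds give the value with all 8 libraries. Dusp5 at 2.16 and Dusp1 at 1.18 stand to the right, and Dusp14 at -0.53 is the lowest.

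Within groups, the libraries shared some of their order across the members. Sham replicate 1 was the highest Sham library for 8 of the 10 genes and Sham replicate 4 the lowest for 7. Among the 3 DEN libraries, replicate 2 was the highest for 7 genes and replicate 3 the lowest for 6. The shares over all genes are not given here, so a trait of these genes and one of the libraries cannot be told apart. The spread of the Sham libraries was smallest for Dusp7, with a coefficient of variation of 8.19%, and largest for Dusp2, with 34.6%.

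Per length, Dusp1 was the most abundant member by far. Its median level in Sham was 87.7 RPKM, followed by Dusp6 at 19.4, Dusp14 at 11.1, Dusp7 at 7.61, Dusp4 at 5.65, Dusp8 at 5.41, Dusp10 at 4.24, Dusp16 at 1.67, Dusp5 at 0.654 and Dusp2 at 0.209 RPKM. In that order the ranges of the 4 libraries overlapped between Dusp14 and Dusp7, between Dusp4 and Dusp8, and between Dusp8 and Dusp10, so those neighbours were not separated. In DEN the median was 208 RPKM for Dusp1, 24.9 for Dusp6, 8.87 for Dusp7, 7.92 for Dusp4, 7.57 for Dusp14, 4.39 for Dusp10, 4.33 for Dusp8, 2.72 for Dusp5, 1.70 for Dusp16 and 0.472 RPKM for Dusp2. Overlapping neighbours there were Dusp4 with Dusp14, Dusp10 with Dusp8, Dusp8 with Dusp5, and Dusp5 with Dusp16. Dusp5, clearly below Dusp16 in Sham, thus overlapped with it in DEN. Dusp14 had a higher median than Dusp7 and Dusp4 in Sham and a lower one in DEN, with overlapping ranges for Dusp7 in Sham and for Dusp4 in DEN.

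The RPKM summed over the 10 genes was 234 to 288 in DEN and 127 to 166 in Sham. Dusp1 made up 75.3% to 77.4% of that sum in DEN and 60.5% to 63.3% in Sham. Without Dusp1 the sums were 57.9 to 65.0 RPKM in DEN and 46.6 to 64.0 RPKM in Sham, and the groups overlapped. DEN replicate 1 had a sum of 270 RPKM, of which Dusp1 made up 78.7%.

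**Figure D3:**
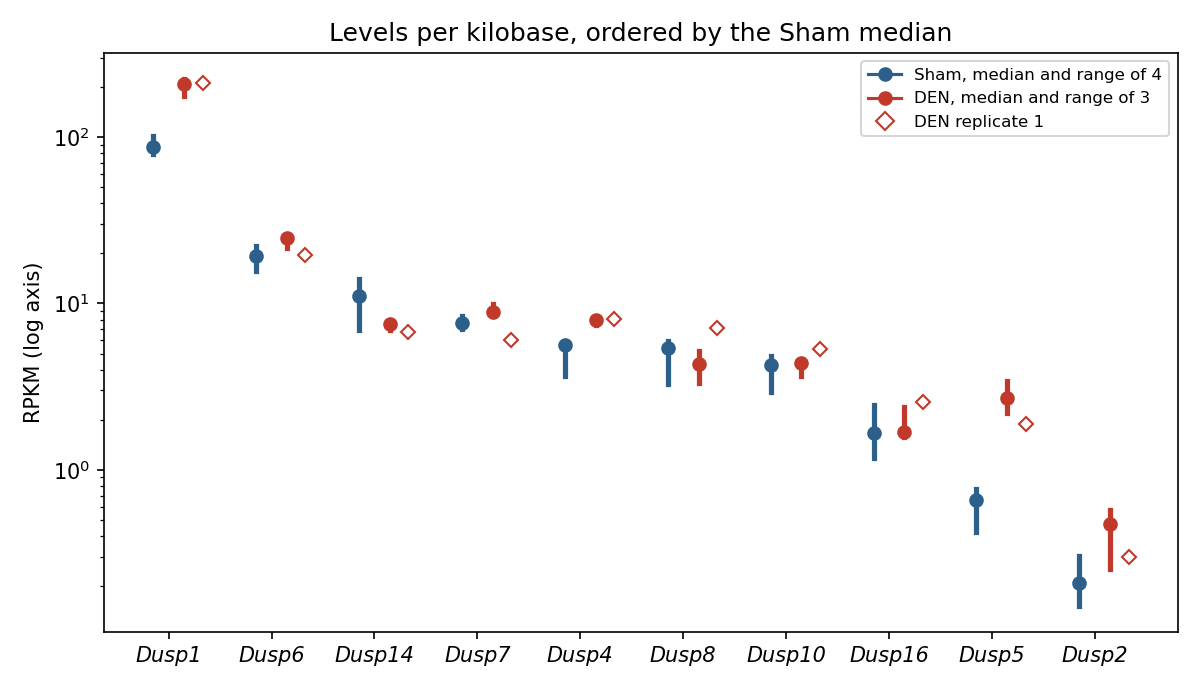
RPKM of each phosphatase gene on a log axis, in the order of the Sham median. Points are medians, lines the range of the 4 Sham or 3 DEN libraries, and open diamonds DEN replicate 1. Dusp1 lies above all others in both groups, at 87.7 RPKM in Sham and 208 RPKM in DEN. The median of Dusp5 is below that of Dusp16 in Sham and above it in DEN, where their ranges overlap.

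The rest of the pathway was described by 8 further lists of phosphatases, kinases, scaffolds and feedback genes. Of their 99 genes 89 were tested, 5 were higher and 6 were lower, with a median log2 fold change of -0.018. These are 5.62% and 6.74% of the tested genes, near the shares over all genes. Without Sham replicate 1 the number higher was 9, and without DEN replicate 2 the number lower was 3. Among 14 other dual-specificity phosphatases, Dusp13 was higher (log2 fold change 2.84, SE 0.42, edgeR adjusted p = 0.00206), at 1.73 ± 0.74 CPM in DEN (SD, n = 3) and 0.237 ± 0.046 CPM in Sham (SD, n = 4). Dusp15 was lower (-2.36, SE 0.47, adjusted p = 0.0108), at 0.326 ± 0.195 CPM in DEN (SD, n = 3) and 1.68 ± 0.57 CPM in Sham (SD, n = 4). Both were rare. Among 6 other phosphatases of MAP kinases, which act on tyrosine or on serine and threonine, edgeR and DESeq2 each called 0, and 1 had an unadjusted p under 0.05. The most abundant of them, Ppp2ca and Ppm1a, had log2 fold changes of 0.21 and 0.18 with adjusted p-values of 0.0906 and 0.25.

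Of 11 MAP kinase genes tested, 2 were higher and 0 were lower, with a median log2 fold change of -0.010. At an unadjusted p under 0.05, 2 were higher and 3 were lower. Mapk3, which encodes ERK1, had 139 ± 11.1 CPM in DEN (SD, n = 3) and 104 ± 7.45 CPM in Sham (SD, n = 4), a log2 fold change of 0.42 (edgeR adjusted p = 0.00999). Mapk12, which encodes p38γ, was higher by 0.45 on the log2 scale (adjusted p = 0.0368). This call was lost without any 1 of DEN replicates 3 and 4 and Sham replicates 2, 3 and 4. Upstream, the kinases that activate p38 moved in opposite directions: Map2k3 was higher by 0.68 on the log2 scale (adjusted p = 0.00609) and Map2k6 lower by a log2 fold change of -0.96 (adjusted p = 0.0324). The call of Map2k6 was lost with all 8 libraries (adjusted p = 0.19), where DEN replicate 1 measured 8.04 CPM against a mean of 3.97 CPM in the other DEN libraries and 7.76 CPM in Sham. It was also lost without any 1 of DEN replicates 2 and 4 and Sham replicates 2, 3 and 4. Of 21 MAP3 kinase genes, Taok2 was lower (-0.37, adjusted p = 0.0304). There edgeR and DESeq2 called 0 higher and DESeq2 called 3 lower, with 3 higher and 4 lower at an unadjusted p under 0.05. Taok2 was no longer called without any 1 of the 3 DEN libraries or of Sham replicates 3 and 4.

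Downstream, 11 kinases activated by MAP kinases included Mapkapk2, the p38-activated kinase, which was higher (log2 fold change 0.31, edgeR adjusted p = 0.0128), and Rps6ka5, a nuclear histone kinase, which was lower (-0.61, adjusted p = 0.00767). Of 8 scaffolds, Ksr1, which holds RAF, MEK and ERK together, was lower, with 8.22 ± 0.92 CPM in DEN (SD, n = 3) and 16.6 ± 2.64 CPM in Sham (SD, n = 4) and a log2 fold change of -1.01 (adjusted p = 0.00302). Neither edgeR nor DESeq2 called a scaffold higher, and 0 were higher at an unadjusted p under 0.05. In the other direction 4 scaffolds, Ksr1 among them, were lower at an unadjusted p under 0.05, and DESeq2 called 3 lower. Of 11 ERK feedback genes outside the phosphatases, Errfi1, an inhibitor of the EGF receptor, was lower (-0.32, adjusted p = 0.0387). In this list edgeR called 0 higher and DESeq2 1, and at an unadjusted p under 0.05 there were 2 higher and 2 lower. Errfi1 was called in 1 of 7 fits that left out a library, the fit without Sham replicate 3.

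**Figure D4:**
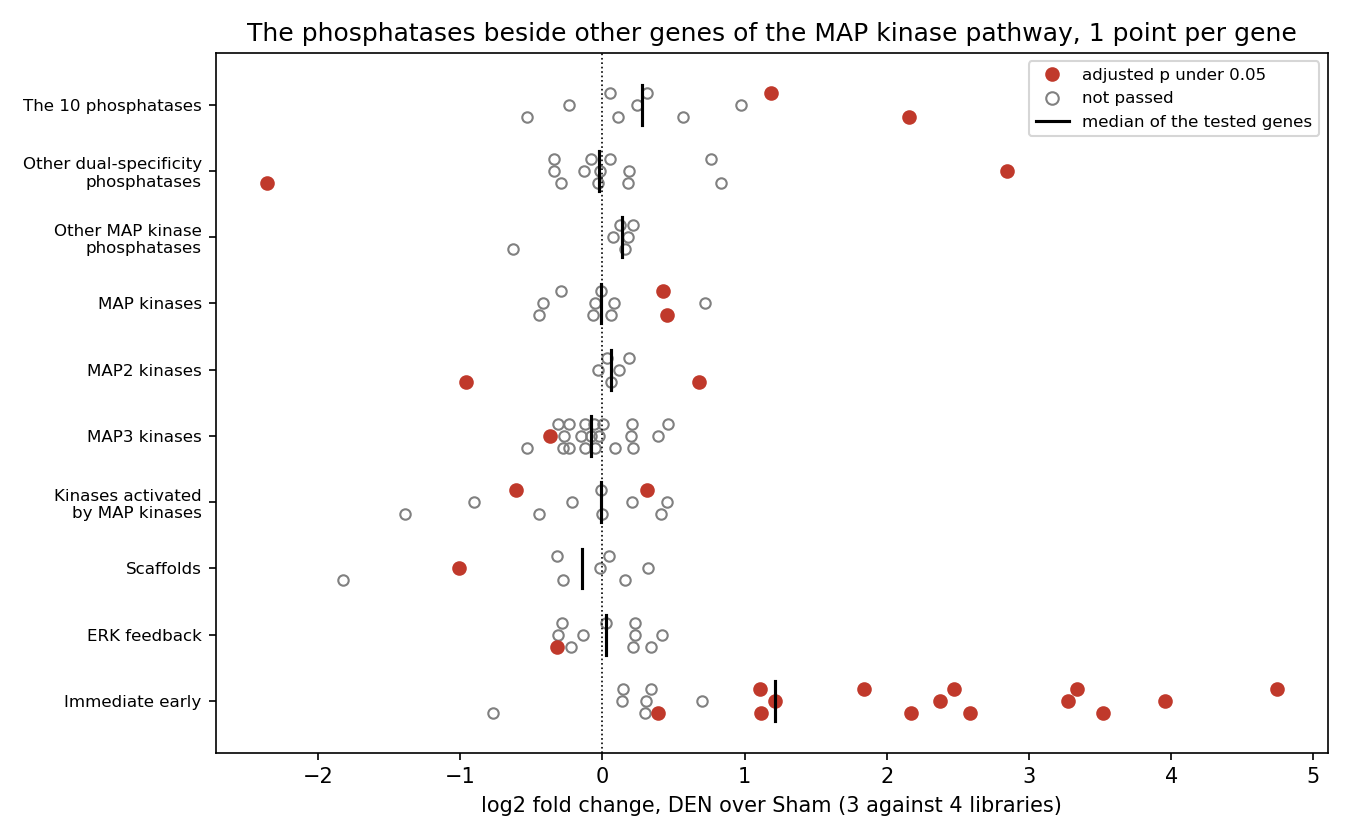
Log2 fold change, DEN over Sham, of every tested gene of the phosphatase group and of 9 other lists, 1 point per gene. Filled points passed an adjusted p of 0.05 and the black line is the median of the list. The immediate early genes, with a median of 1.21, lie to the right of the other lists, whose medians run from -0.15 to 0.28.

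Dusp1 belongs with the immediate early genes, which cells transcribe within minutes of a stimulus. Of 21 such genes tested outside the phosphatases, 14 were higher, where 5.29% of all genes were. This list was chosen with earlier results of these data known. Its median log2 fold change was 1.21, and its summed level was 8506 to 9067 CPM in DEN and 1343 to 2194 CPM in Sham. Fos had a log2 fold change of 4.74, Egr1 of 3.34, Junb of 3.27 and Jun of 2.37, all larger than that of Dusp1. At 1.18 Dusp1 was near the median of this list. DEN replicate 1 had a sum of 7342 CPM. The enzymatic digestion before sorting was shared by both groups, and its part in these levels was not tested. Of 10 heat shock genes 1 was higher, and their sums overlapped at 2690 to 3306 CPM in DEN and 2105 to 3737 CPM in Sham.

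The genes whose log2 CPM followed each of 3 phosphatases most closely over the 8 libraries were found by Pearson's r, as a description of libraries that share their groups. For Dusp1 they were Urod, Tnfrsf12a and Ttc9, with r between 0.993 and 0.998. For Dusp5 they were Jag1, a Notch ligand, Tubb4b and Fbxo6, with r between 0.991 and 0.993. For Dusp4 they were Gm7984, Gm11618 and Klc3, with r between 0.98 and 0.989.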

How the data were processed

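Reads were counted per gene by the authors with bcl2fastq 2.20.0.422, cutadapt 2.1, TopHat2 2.1.0 on GRCm38 and featureCounts 1.6.5 without strand, versions as in the submitters' processing notes. The library kit amplified full-length cDNA and carried no molecular identifiers. The deposited RPM values were obtained by the authors by dividing counts by each library's total, and the deposited RPKM values divide RPM by gene length. For all 10 phosphatases that length matched the exon union of GENCODE M21, which also gave the positions. How reads shared by overlapping genes were counted is not given in the sources used here.

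Low counts were removed with filterByExpr (edgeR 4.0.16, R 4.3.3, minimum count 10, minimum total 15). The 17454 genes left, or 17008 where all 8 libraries were used, were scaled by TMM and compared by edgeR's robust quasi-likelihood test with Benjamini-Hochberg adjustment over all genes tested. The script was tested on simulated data. Counting intervals are exact (Clopper-Pearson, 95%) and cover counting error only. P-values measure the spread between mice. Alternatives were DESeq2 1.42.0 (the tool of the paper), other scalings, no count filter, limma 3.58.1 on log2(RPM + 1), all 8 libraries, a replicate block and leaving out each library.

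The phosphatases and all gene lists were chosen with earlier results of these data known. The text names all 10 phosphatases, up to 4 called genes with the smallest adjusted p of each pathway list (or the 2 with the highest mean CPM where none was called), and for the 3 phosphatases with the smallest adjusted p the 3 genes with the highest correlation of log2 CPM. Fos, Egr1, Junb and Jun were named after their values were seen. A planned description of protein sequences was not made because no protein table was used here.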

Additional observations from a re-analysis of the deposited data

Results flagged for a closer look

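DEN replicate 1 was left out of the comparison of 3 DEN with 4 Sham libraries. In that library 5 of the 10 phosphatases lay above every Sham library together with the exact counting interval of each, at 714 CPM for Dusp1, 22.4 CPM for Dusp4, 4.73 CPM for Dusp5, 35.0 CPM for Dusp8 and 16.4 CPM for Dusp10. Of all 17454 genes tested, 19.5% lay above every Sham library in DEN replicate 1 in the same way. Dusp1, Dusp4 and Dusp5 were also above every Sham library in the other 3 DEN libraries, and Dusp8 and Dusp10 were not. The intervals cover counting error and not the spread between mice. Dixon's ratio was taken for each phosphatase in each group of 4 libraries (20 tests), and 0 exceeded the 95% critical value, where chance gives about 1 in 20.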

How the results depend on the processing

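Dusp1 and Dusp5 were called higher under 14 of 14 alternatives, with log2 fold changes of 1.11 to 1.27 and 1.63 to 2.30. Dusp4 was called under 4 of 14 (all 8 libraries, DESeq2, no count filter and limma), and leaving out 1 library gave 0.43 to 0.64. Dusp14 was called only without Sham replicate 3, so the number of phosphatases called lower ranged from 0 to 1 when 1 library was left out. Dusp2, Dusp6, Dusp7, Dusp8, Dusp10 and Dusp16 were called under none of the alternatives run. The direction of Dusp10 turned without DEN replicate 3 and without Sham replicate 3 (-0.011 and -0.069, range -0.069 to 0.15 over left-out libraries), and that of Dusp16 without DEN replicate 2 and without Sham replicate 4 (-0.091 and -0.038, range -0.091 to 0.32). Over all genes, leaving out 1 library gave 575 to 900 genes higher and 523 to 914 lower, with the lowest counts without DEN replicate 2, against 924 and 929 with none left out. Of the 8 pathway lists, DESeq2 called 8 genes higher and 10 lower, and leaving out 1 library gave 4 to 9 higher (9 without Sham replicate 1) and 3 to 5 lower (3 without DEN replicate 2). The causes were not tested beyond the smaller number of libraries. Replicate numbers are shared by the groups, but deviations of same-numbered libraries did not correlate (-0.0234, 0.00655 and -0.0457). With a replicate block 647 genes were higher and 668 lower, Dusp1 and Dusp5 were called, and Dusp4 was not (adjusted p = 0.0946). The calls of Mapkapk2 (adjusted p = 0.0667), Mapk12 (0.0713) and Errfi1 (0.102) were lost under the block. Dusp13, Dusp15, Mapk3, Map2k3, Rps6ka5 and Ksr1 were called under 14 of 14 alternatives, Mapkapk2 under 13, Taok2 under 9, Mapk12 and Map2k6 under 8 and Errfi1 under 7. Depth limits Dusp2, with 9 to 34 reads per library, more than any other member.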

Other observations

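Markers of cells that could share the α7-integrin gate, or reach it, were listed beside the phosphatases. Of 8 Schwann cell and glia markers, 3 were higher and 2 lower after DEN in edgeR's test, with sums of 705 to 968 CPM in DEN and 924 to 1254 CPM in Sham. Ngfr, the low-affinity nerve growth factor receptor of non-myelinating and repair Schwann cells, had a mean of 21.2 CPM in DEN and 5.08 CPM in Sham, and Mbp, a protein of myelin, had 30.6 and 95.5 CPM, both chosen after their values were seen. Of 7 fibro-adipogenic progenitor markers 1 was higher and 2 were lower, with sums of 2227 to 2456 CPM in DEN and 2950 to 4044 CPM in Sham. Most of that sum was Col3a1, with means of 1752 CPM in DEN and 2613 CPM in Sham. Of the 7 markers 4 had a log2 fold change above 0, among them Pdgfra and Ly6a. These 2 were rare, at 1.41 and 5.53 CPM in DEN and 0.745 and 3.77 CPM in Sham, and were not called. Of 8 smooth muscle and pericyte markers 1 was higher and 2 were lower. Their sums were 9242 to 9866 CPM in DEN and 9390 to 11890 CPM in Sham, above those of the MuSC markers in both groups. Of 7 endothelial markers edgeR called 0, DESeq2 called 1 lower, and 1 had an unadjusted p under 0.05. Macrophage and neutrophil markers summed to 4.29 to 120 CPM in DEN and 15.9 to 51.5 CPM in Sham, and of 7 tested 2 were higher. These were S100a8, at a mean of 0.663 CPM in DEN and 0 CPM in Sham, and C1qb, which ranged from 0.244 to 15.5 CPM in DEN. DESeq2 and the fit of all 8 libraries each called 1 of the list higher. The part of all these cells in the levels of the phosphatases was not tested.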
